A study of Rattus norvegicus with 72 samples.

Results

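The Cyp4 family was followed through the 72 arrays of rat hepatocytes by every probe set whose platform gene symbol is, or includes, Cyp4a1, Cyp4a2, Cyp4a3, Cyp4a8, Cyp4b1, Cyp4f1, Cyp4f4 or Cyp4v3. These 8 genes, of 14863 named on the platform, had 10 of the 31042 probe sets that are not array controls. Cyp4a8 and Cyp4v3 had 2 probe sets each, the others had 1, and 1 probe set carries the symbols of both Cyp4a3 and Cyp4a2, so that Cyp4a2 had no probe set of its own. A low-signal filter, described with the methods, kept 9 of the 10 and left out the second Cyp4v3 probe set, whose intensities lay between 0.576 and 23.7.

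Cyp4 enzymes are cytochrome P450 monooxygenases of the endoplasmic reticulum that put a hydroxyl group on fatty acids, mostly at the end of the chain farthest from the carboxyl group (ω-hydroxylation). The hydroxylated acids are oxidised further to dicarboxylic acids, which peroxisomes shorten by β-oxidation. In rodent liver the Cyp4a genes are classical targets of PPARα, a nuclear receptor that is switched on by fatty acids and by peroxisome proliferators, while Cyp4f enzymes act on leukotrienes and other eicosanoids, Cyp4b1 is known mainly from the lung and Cyp4v enzymes act on medium-chain and polyunsaturated fatty acids.

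The cells were primary rat hepatocytes, isolated by collagenase perfusion and kept as a monolayer in William's E medium, from which serum was removed after attachment and to which hydrocortisone and insulin were then added. Treated and control cells of all groups shared these conditions, and the sources used here do not give the number of rats. The carcinogens were aflatoxin B1 (19 nM), the tobacco nitrosamine NNK (625 µM) and 2-nitrofluorene (78 µM), named genotoxic by the design text, and Wy-14643, a synthetic PPARα agonist (250 µM), the insecticide synergist piperonyl butoxide (13.4 µM) and the antihistamine methapyrilene (8.5 µM), named non-genotoxic. The calcium channel blocker nifedipine (156 µM) and the α2-adrenergic agonist clonidine (277 µM) served as non-carcinogens. RNA was taken after 24 h and 72 h, with 3 arrays per group, each from its own experiment. A single control group per time served aflatoxin B1, clonidine and Wy-14643 together. Another served 2-nitrofluorene, piperonyl butoxide and nifedipine together, and NNK and methapyrilene each had their own. Comparisons within a set therefore share their control arrays.

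Array medians lay between 15.8 and 23.8 intensity units. Of 7 measured hepatocyte markers none was at the floor on any array, and albumin (Alb) ranged from 3055 to 11268. The titles carry a D number, of unstated meaning, that recurs across treatments and times. On 10 arrays the log2 ratio of 3′ to 5′ beta-actin signal was 1.84 to 2.71, against 0.36 to 1.11 on the other 62. They were all 8 arrays of D number 3 (the replicate 3 arrays of aflatoxin B1, clonidine, Wy-14643 and their controls) and 2 more of aflatoxin B1, replicate 1 at 24 h and replicate 2 at 72 h. In the D number 3 controls Cyp4a1 also ran against the labelled times, unlike the other control pairs, while Cyp4f1 did not. The main results of that set are therefore given with and without the D number 3 arrays.

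On rat chromosome 5 the family's genes lie in the order Cyp4a8, Cyp4a2, Cyp4a3, Cyp4a1 and Cyp4b1, with a further Cyp4a gene (Cyp4a2l1) between Cyp4a2 and Cyp4a3. Cyp4f4 and Cyp4f1 lie in a cluster on chromosome 7 and Cyp4v3 on chromosome 16. Promoters of 5 of the 8 genes matched the RefSeq table (GRCr8, 250 bases before to 50 after the annotated start). That of Cyp4a1 did not match. A link of promoter sequence to the calls was not tested. The 4 matched promoters from chromosome 5 are printed because the calls, with all arrays and no replicate block, differed among these neighbours. Cyp4a3 and the probe set it shares with Cyp4a2 were called higher with 2-nitrofluorene at both times and with Wy-14643 at 72 h. Cyp4b1 was called with Wy-14643 at 72 h alone, and Cyp4a8 was called in no comparison. All are written 5′ to 3′ along the gene, which lies on the minus strand, and capitals mark the nuclear receptor half-site AGGTCA. They span chr5:134170859-134171158 (Cyp4a2), chr5:134352187-134352486 (Cyp4a3), chr5:133970177-133970476 (Cyp4a8) and chr5:134393067-134393366 (Cyp4b1).
Cyp4a2: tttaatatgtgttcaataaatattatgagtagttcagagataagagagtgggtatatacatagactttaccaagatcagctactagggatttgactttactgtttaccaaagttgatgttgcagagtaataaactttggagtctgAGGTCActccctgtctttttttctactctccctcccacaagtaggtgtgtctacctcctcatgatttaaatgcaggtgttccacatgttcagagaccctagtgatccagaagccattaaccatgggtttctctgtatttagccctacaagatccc
Cyp4a3: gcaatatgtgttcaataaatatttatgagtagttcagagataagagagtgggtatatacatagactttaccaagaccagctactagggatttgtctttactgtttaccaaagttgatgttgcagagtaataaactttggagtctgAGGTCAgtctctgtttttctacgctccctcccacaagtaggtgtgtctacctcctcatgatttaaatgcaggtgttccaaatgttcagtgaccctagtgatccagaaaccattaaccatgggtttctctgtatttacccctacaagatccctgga
Cyp4a8: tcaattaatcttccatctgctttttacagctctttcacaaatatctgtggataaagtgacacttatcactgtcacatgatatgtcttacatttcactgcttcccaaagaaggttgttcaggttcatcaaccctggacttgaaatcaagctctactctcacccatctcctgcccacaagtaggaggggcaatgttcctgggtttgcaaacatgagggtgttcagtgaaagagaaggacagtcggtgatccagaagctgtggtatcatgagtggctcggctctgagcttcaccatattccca
Cyp4b1: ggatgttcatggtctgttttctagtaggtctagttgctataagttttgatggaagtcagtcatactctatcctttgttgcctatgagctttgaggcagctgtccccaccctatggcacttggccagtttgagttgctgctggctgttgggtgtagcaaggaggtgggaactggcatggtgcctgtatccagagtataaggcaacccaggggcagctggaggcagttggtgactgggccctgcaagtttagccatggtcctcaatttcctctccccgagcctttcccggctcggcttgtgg
The Cyp4a2 and Cyp4a3 windows were 93.1% identical (284 of 305 aligned positions) and held AGGTCA at the same place, bases 146 to 151. Cyp4a8 was 58.5% identical to Cyp4a2, and neither it nor Cyp4b1 had the half-site on either strand. AGGTCA, searched on both strands, occurred in 16.2% of 33469 rat promoters of this length. The direct repeat DR1 (the half-site written head to tail with 1 base of any kind between, so that each match also holds AGGTCA), the form that PPARα binds together with RXR, occurred in 0.0538% and in 0 of the 5 windows of the family.

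Cyp4a1 encodes the main fatty acid ω-hydroxylase that peroxisome proliferators raise in rat liver. After 24 h of 2-nitrofluorene its intensities were 4143, 3730.5 and 4610.0, against 83.7, 109 and 71.0 in the controls. All 3 treated arrays lay far above all 3 controls. The difference was 5.58 ± 0.94 on the log2 scale (SE from limma, 3 arrays per group), 47.9-fold with a 95% interval of 13.0 to 176 (adjusted p = 0.000141). Piperonyl butoxide gave 2397, 3164 and 2459 at 24 h against the same controls, a rise of 4.94 ± 0.94 or 30.6-fold (limma adjusted p = 0.00664). Its groups did not overlap either. Leaving out piperonyl butoxide replicate 2, or control replicate 1 or 3, ended that call (limma adjusted p up to 0.0838), while the 2-nitrofluorene call held with each array left out.

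After 72 h the Cyp4a1 intensities were 5605, 3695 and 5650.1 with 2-nitrofluorene and 378, 175 and 370.3 in its controls. The treated level was near that of 24 h, and the control level was higher. The difference was 4.08 ± 0.94 (16.9-fold, limma adjusted p = 0.0139). Wy-14643 gave 5784, 5201 and 4520 against 944, 1159.8 and 85.9, a rise of 3.50 ± 0.94 (11.3-fold, limma adjusted p = 0.0124). The lowest of these controls was the D number 3 array. Without the D number 3 arrays the Wy-14643 rise was 2.39 ± 0.79 (limma adjusted p = 0.0457), and without that control alone it was 2.30 and not called. Leaving out Wy-14643 replicate 2, which is not a D number 3 array, ended the call too (limma adjusted p up to 0.134 over both). The 2-nitrofluorene call at 72 h was lost on leaving out control replicate 2 or treated replicate 1 or 3 (limma adjusted p up to 0.158).

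Wy-14643 at 24 h showed how much the D number 3 arrays weigh. Cyp4a1 read 554, 335 and 5616 with Wy-14643 and 129, 112 and 362 in the controls, where the third value of each is D number 3. All 3 pairs of equal D number were higher with the compound, but the group ranges met, and the difference of 2.54 ± 0.94 was not called (limma adjusted p = 0.291). In the fit with the replicate block, which compares arrays of equal D number, it was called (limma adjusted p = 0.00665). Without D number 3 it was 1.84 ± 0.79 (limma adjusted p = 1).

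**Figure D1:**
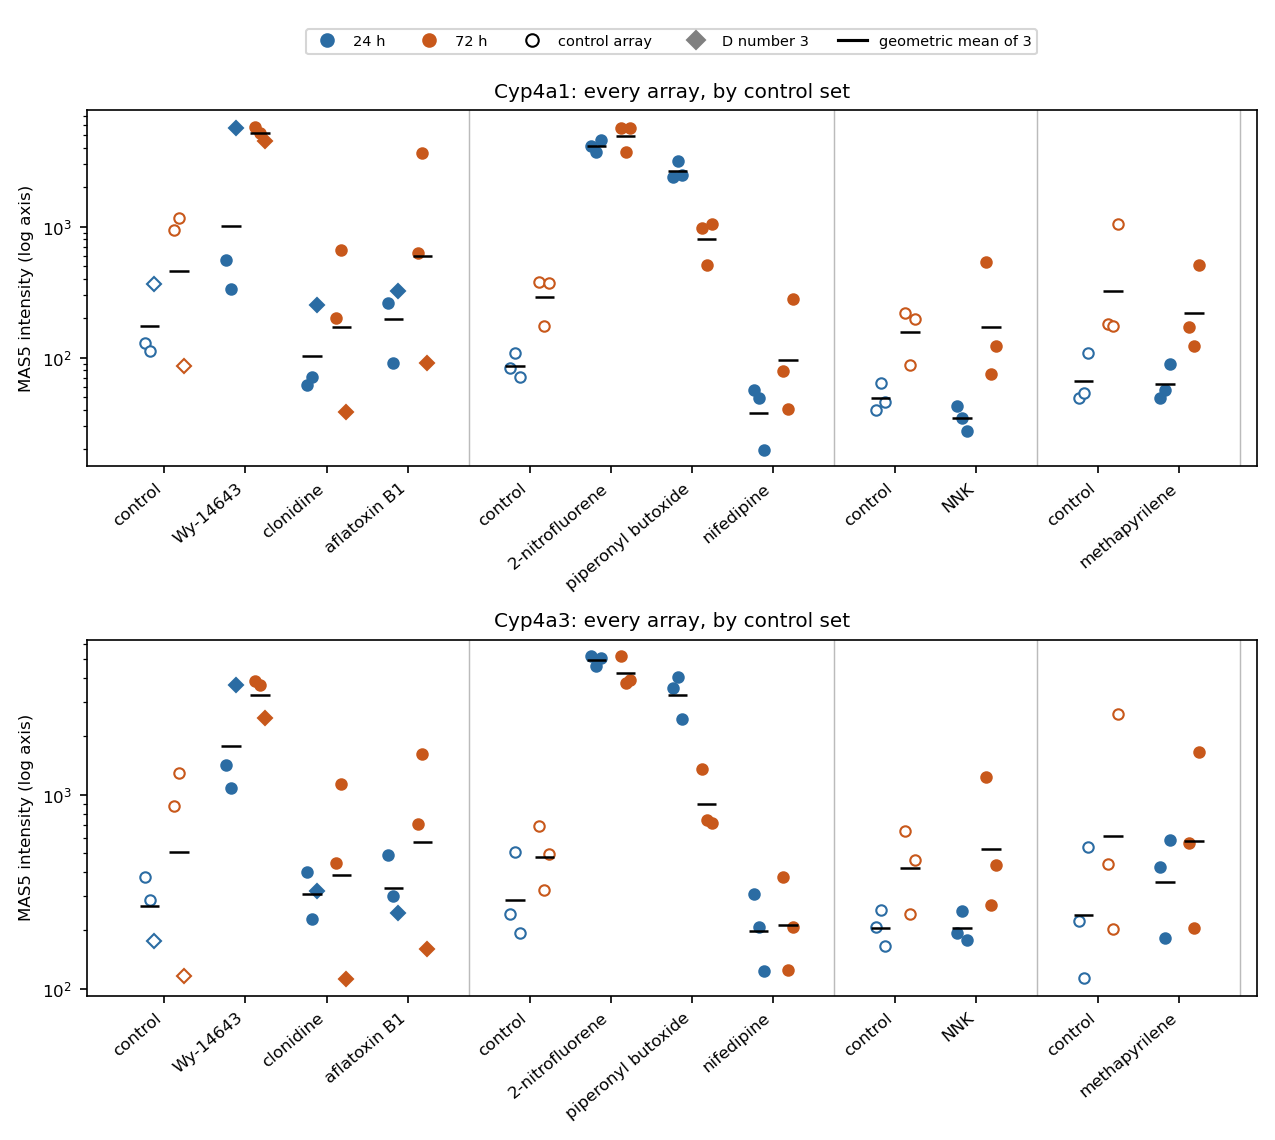
MAS5 intensity (log axis) of Cyp4a1 and Cyp4a3 on each of the 72 arrays, by control set and treatment; open symbols are control arrays, diamonds are D number 3, and bars are geometric means of 3 arrays. With 2-nitrofluorene the Cyp4a1 points lie between 3695 and 5650.1, above all of their control arrays at both times, and the single aflatoxin B1 array at 3646 stands far from its 2 partners at 72 h.

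Cyp4a2 and Cyp4a3 encode close relatives of Cyp4a1 that hydroxylate fatty acids and arachidonic acid. With 2-nitrofluorene Cyp4a3 read 5161, 4630.2 and 5069 at 24 h against 244, 507 and 194 in the controls, a rise of 4.10 ± 0.77 (17.2-fold, limma adjusted p = 0.000725). The probe set shared by Cyp4a3 and Cyp4a2 read 6531, 5957 and 6273 against 473, 765 and 287, a rise of 3.73 ± 0.79 (13.3-fold, limma adjusted p = 0.00376). Neither overlapped its controls, and the shared one lost its call without control replicate 3 (limma adjusted p = 0.058). How much of the shared signal is Cyp4a2 cannot be told apart from Cyp4a3. After 72 h of 2-nitrofluorene the rises were 3.14 ± 0.77 for Cyp4a3 (limma adjusted p = 0.026) and 2.99 ± 0.79 for the shared probe set (0.0493). Both calls were close to the threshold, and they were lost on leaving out 5 and 6 of the 6 arrays in turn.

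Piperonyl butoxide at 24 h raised Cyp4a3 to 3539, 4031 and 2456, by 3.50 ± 0.77 (11.4-fold, limma adjusted p = 0.0382), a call that leaving out any of the 6 arrays ended. The shared probe set read 4793, 5856 and 4003, with a difference of 3.36 ± 0.79 that was called only with the replicate block (limma adjusted p = 0.0804 without and 2.63e-06 with it). With Wy-14643 at 72 h Cyp4a3 read 3851, 3697 and 2475 against 872, 1288 and 117, a rise of 2.69 ± 0.77 (limma adjusted p = 0.0208), and the shared probe set rose by 2.77 ± 0.79 (0.0197). The treated arrays exceeded every control, of which D number 3 was again the lowest. Without the D number 3 arrays the values were 1.83 and 1.78, and neither was called (limma adjusted p = 0.136 and 0.168). At 24 h Wy-14643 gave 1432, 1078 and 3681 against 378, 287 and 177 for Cyp4a3, with no overlap. That difference of 2.74 ± 0.77 was called with the replicate block (limma adjusted p = 3.5e-05) and not without it (0.147). The third value of each group is D number 3, and that pair, 3681 and 177, lay furthest apart.

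Counted by gene, taking for each gene the brightest probe set that carries its symbol alone, where there was one, 2-nitrofluorene at 24 h raised 3 of the 8 genes (Cyp4a1, Cyp4a2 and Cyp4a3) and lowered 0. Of all 18048 probe sets tested 0.792% were called higher. Piperonyl butoxide at 24 h raised 2 of 8 (Cyp4a1 and Cyp4a3, background 0.0887% higher). At 72 h 2-nitrofluorene raised the same 3 genes as at 24 h (0.698% higher). Wy-14643 at 72 h raised 4 (Cyp4a1, Cyp4a2, Cyp4a3 and Cyp4b1, 2.82% higher) and lowered Cyp4f1 (4.49% lower). For Wy-14643 at 72 h the count was 3 without the D number 3 arrays (Cyp4a1, Cyp4b1 and Cyp4f1). With a spread taken from the compared groups alone it was 0. The shares of all probe sets called in these settings were not recorded, so these counts are not read as results about the family. Cyp4a2 is counted here through the shared probe set.

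In the other 12 comparisons limma called 0 of the 8 genes, with 0 to 5 genes at an unadjusted p under 0.05. At 24 h these were Wy-14643 (5 unadjusted, background of calls in either direction 0.0443%), nifedipine (2, 0.46%), clonidine (2, 0.0166%), aflatoxin B1 (1, 3.33%), NNK (1, 0.92%) and methapyrilene (0, 0%). At 72 h they were aflatoxin B1 (2, 4.91%), clonidine (1, 0.0332%), NNK (0, 3.32%), nifedipine (0, 3.18%), and piperonyl butoxide and methapyrilene (both 0, 0%). The replicate block moved several of these counts. It called 4 genes for Wy-14643 at 24 h (Cyp4a1, Cyp4a2, Cyp4a3 and Cyp4f1, background 3.98%), 1 for nifedipine at 24 h (Cyp4f1, 4.54%) and 3 for nifedipine at 72 h (Cyp4a1, Cyp4a2 and Cyp4a3, 15.1%), and it took Wy-14643 at 72 h from 5 to 7 (21.2%), 2-nitrofluorene at 24 h from 3 to 4 (Cyp4f4 added, 7.24%) and piperonyl butoxide at 24 h from 2 to 3 (0.676%). With aflatoxin B1 it called 1 at 24 h (10.4%) and 2 at 72 h (14.4%).

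**Figure D2:**
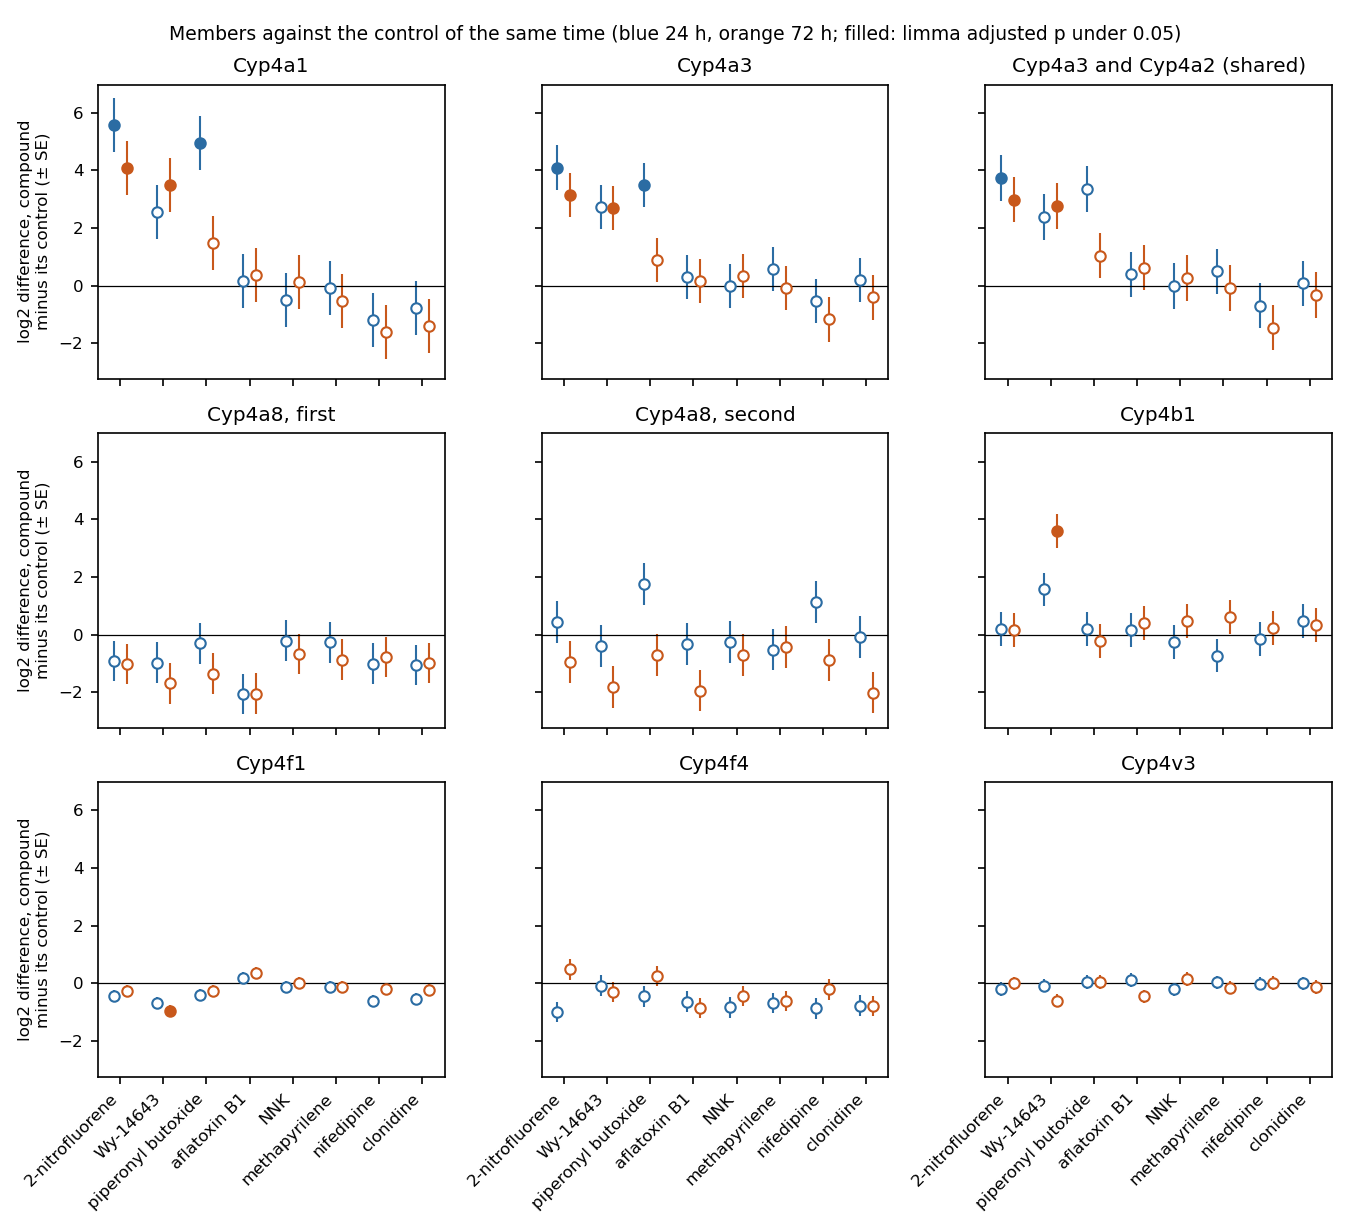
Log2 difference (± SE) of each compound from its control at the same time for the 9 kept probe sets of the family, with 24 h in blue and 72 h in orange and filled points where the limma adjusted p was under 0.05. The filled points above 0 belong to 2-nitrofluorene, Wy-14643 at 72 h and piperonyl butoxide at 24 h, and the single filled point below 0 is Cyp4f1 with Wy-14643 at 72 h.

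The piperonyl butoxide difference was smaller at 72 h. Cyp4a1 read 980, 509 and 1052 at that time, above all 3 controls (378, 175 and 370.3), for a difference of 1.47 ± 0.94 that was not called (limma adjusted p = 1). The effect at 72 h minus that at 24 h was −3.46 ± 1.32 for Cyp4a1, −2.60 ± 1.09 for Cyp4a3 and −2.31 ± 1.11 for the shared probe set. Their 95% intervals, −6.12 to −0.81 for Cyp4a1, lay below 0, but 0 of the 8 genes passed the limma threshold in this contrast (3 had an unadjusted p under 0.05, and of all probe sets 0% were called). In the same contrast 0 of the 8 genes were called for the other 7 compounds (0 or 1 unadjusted for each), where 0.116% of all probe sets were called for nifedipine, 0.0277% for NNK, 0.00554% for 2-nitrofluorene and 0% for the others. For 2-nitrofluorene the Cyp4a1 value was −1.51, with an interval from −4.16 to 1.15.

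The Cyp4a1 response to 2-nitrofluorene exceeded that to Wy-14643 by 3.04 ± 1.32 at 24 h (95% interval 0.38 to 5.69, limma adjusted p = 1) and by 0.58 ± 1.32 at 72 h (−2.08 to 3.23, limma adjusted p = 0.939). The doses were 78 µM and 250 µM, and the controls came from different sets.

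Nifedipine arrays were on the low side for the Cyp4a genes. Cyp4a1 read 57.1, 49.0 and 19.7 at 24 h, all below the controls at 83.7, 109 and 71.0, and 78.9, 40.3 and 278 at 72 h against 378, 175 and 370.3. The differences were −1.19 ± 0.94 and −1.60 ± 0.94, neither called without the replicate block (limma adjusted p = 0.84 and 0.399). With the block 3 probe sets passed at 72 h, Cyp4a1 (limma adjusted p = 0.0385), Cyp4a3 (−1.16, 0.0292) and the shared one (−1.45, 0.0162), and each was lower in all 3 pairs. Clonidine gave Cyp4a1 values of −0.75 and −1.40, below 0 in every pair at both times and not called with or without the block. Aflatoxin B1 gave 0.17 and 0.39, NNK −0.51 and 0.13 and methapyrilene −0.06 and −0.54, with overlap of the groups in each case. At 72 h of aflatoxin B1 the 3 arrays read 630, 3646 and 91.8, and the high one is the array with a high actin ratio outside D number 3.

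Over the 72 arrays the log2 values of Cyp4a1 ran with those of Cyp4a3 (r = 0.924) and of the shared probe set (0.926), and these last 2 with each other (0.989), as a description over arrays that share treatments, controls and D numbers. Other pairs were loose, such as Cyp4a1 with Cyp4b1 (0.253), Cyp4f1 (−0.430), Cyp4f4 (0.00) and Cyp4a8 (−0.03). The 5 genes of 10171 outside the family with the highest r to Cyp4a1 were Ech1 (0.931), Decr1 (0.920) and Eci1 (0.916), which encode enzymes that help to oxidise unsaturated fatty acids, Creb3l3 (0.914), a liver transcription factor of lipid metabolism, and Cpt1a (0.886), which admits fatty acids to mitochondria.

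Cyp4a8, the neighbour of Cyp4a2, encodes a Cyp4a enzyme known from kidney and liver. It was dim here. Its first probe set read 3.46 to 91.4 over the 24 control arrays (median 15.7), with 4 of 72 arrays at the floor, and the second read 1.44 to 35.5 (median 10.7), with 21 arrays at the floor. Differences of the first ran from −2.06 to −0.21 over the 16 comparisons, and 0 were called. It passed the low-signal filter through control groups and, among treated groups, only through clonidine at 72 h (20.7). The second passed only through control groups at 72 h. Both cases favour lower treated values, so signs are counted for neither probe set. For the second too 0 differences were called (lowest limma adjusted p = 0.085 for the first and 0.12 for the second). The 2 probe sets correlated at r = 0.574 over 72 arrays.

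The most negative Cyp4a8 differences of the first probe set were those of aflatoxin B1. At 24 h it read 1.48, 1.43 and 12.8 with the compound against 17.5, 12.2 and 42.4, for −2.06 ± 0.71 (limma adjusted p = 0.102), and at 72 h it read 18.8, 4.68 and 11.0 against 45.2, 91.4 and 16.6, for −2.05 ± 0.71 (0.085). The groups overlapped. The probe set passed the low-signal filter through these controls among others, which favours lower treated values, so pairs are not counted. The high and low arrays of the control group at 72 h again included D number 3 at the low end. With Wy-14643 at 72 h the probe sets gave −1.69 and −1.82, which were called with the replicate block only (limma adjusted p = 0.00774 and 0.0373), and there the Wy-14643 arrays of the first read 42.0, 7.24 and 6.72. With aflatoxin B1 the block also called Cyp4a8 at both times, but in those comparisons 1 pair of equal number did not vary together.

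Cyp4b1, known for activating several lung and kidney toxicants, had the largest difference of the family with Wy-14643 at 72 h. Its probe set read 25.1, 563 and 59.4 against 7.92, 5.42 and 11.0. No treated array met the controls, but the 3 treated arrays themselves were spread over more than an order of magnitude. The rise was 3.60 ± 0.59 on the log2 scale (limma adjusted p = 3.28e-05). The controls lay below the median of all values, and whether they were above background was not tested, so no fold is given. It stayed called with each array left out (2.31 to 4.56, limma adjusted p at most 0.0074) and without the D number 3 arrays (4.18), and it was lost where only these 2 groups set the spread (limma adjusted p = 0.438). The SE comes from the spread pooled over all 24 groups, while the SD of the 3 Wy-14643 arrays was 2.32 on the log2 scale.

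At 24 h of Wy-14643 Cyp4b1 read 11.3, 13.2 and 144 against 7.86, 9.81 and 10.8, where the value of 144 is the D number 3 array. The difference was 1.56 ± 0.59, not called (limma adjusted p = 0.307), and 0.48 without D number 3. With the other compounds the highest array read 26.7, and the other 14 comparisons lay between −0.73 and 0.62. With 2-nitrofluorene at 72 h the arrays read 11.1, 10.3 and 8.44 against 7.10, 12.8 and 7.64. The 2-nitrofluorene effect minus the Wy-14643 effect at 72 h was −3.44 ± 0.83 (limma adjusted p = 0.0406), the 1 of 8 genes called in that contrast, in which 0.127% of all probe sets were called lower. That call was lost on leaving out Wy-14643 replicate 2, its control replicate 2, or any 1 array of 2-nitrofluorene or its controls at 72 h.

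Cyp4f1 encodes a liver enzyme that hydroxylates leukotriene B4 and arachidonic acid. It was bright in every group, between 399 and 1488 over all arrays. With Wy-14643 at 72 h it read 399, 404 and 779.8 against 756, 1013 and 1183. Only the D number 3 array with the compound reached the range of the controls. It fell by 0.95 ± 0.21 on the log2 scale (limma adjusted p = 0.00173), or by 1.12 without the D number 3 arrays, and the call held with each array left out. At 24 h of Wy-14643 the arrays read 918, 952 and 513 against 1170.2, 1136 and 1406, with no overlap. That difference of −0.69 ± 0.21 passed with the replicate block only (limma adjusted p = 0.193 without and 0.00687 with it). The third value of each group is D number 3, and that pair, 513 and 1406, lay furthest apart.

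Other compounds moved Cyp4f1 less. Its differences were below 0 in 14 of 16 comparisons, and those at 24 h with no overlap of the groups were −0.60 for nifedipine (called with the block only, limma adjusted p = 0.0106), −0.53 for clonidine, −0.44 for 2-nitrofluorene, −0.40 for piperonyl butoxide and −0.14 for NNK. Compounds of a set share their control arrays, so these signs and gaps are not independent. Their shares over all probe sets were not recorded, and they are not read as a pattern. Aflatoxin B1 alone lay above 0, by 0.18 and 0.34, uncalled. At 72 h the 2-nitrofluorene effect exceeded that of Wy-14643 by 0.67 ± 0.29, called with the block (limma adjusted p = 0.0436) and not without it (0.355).

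**Figure D3:**
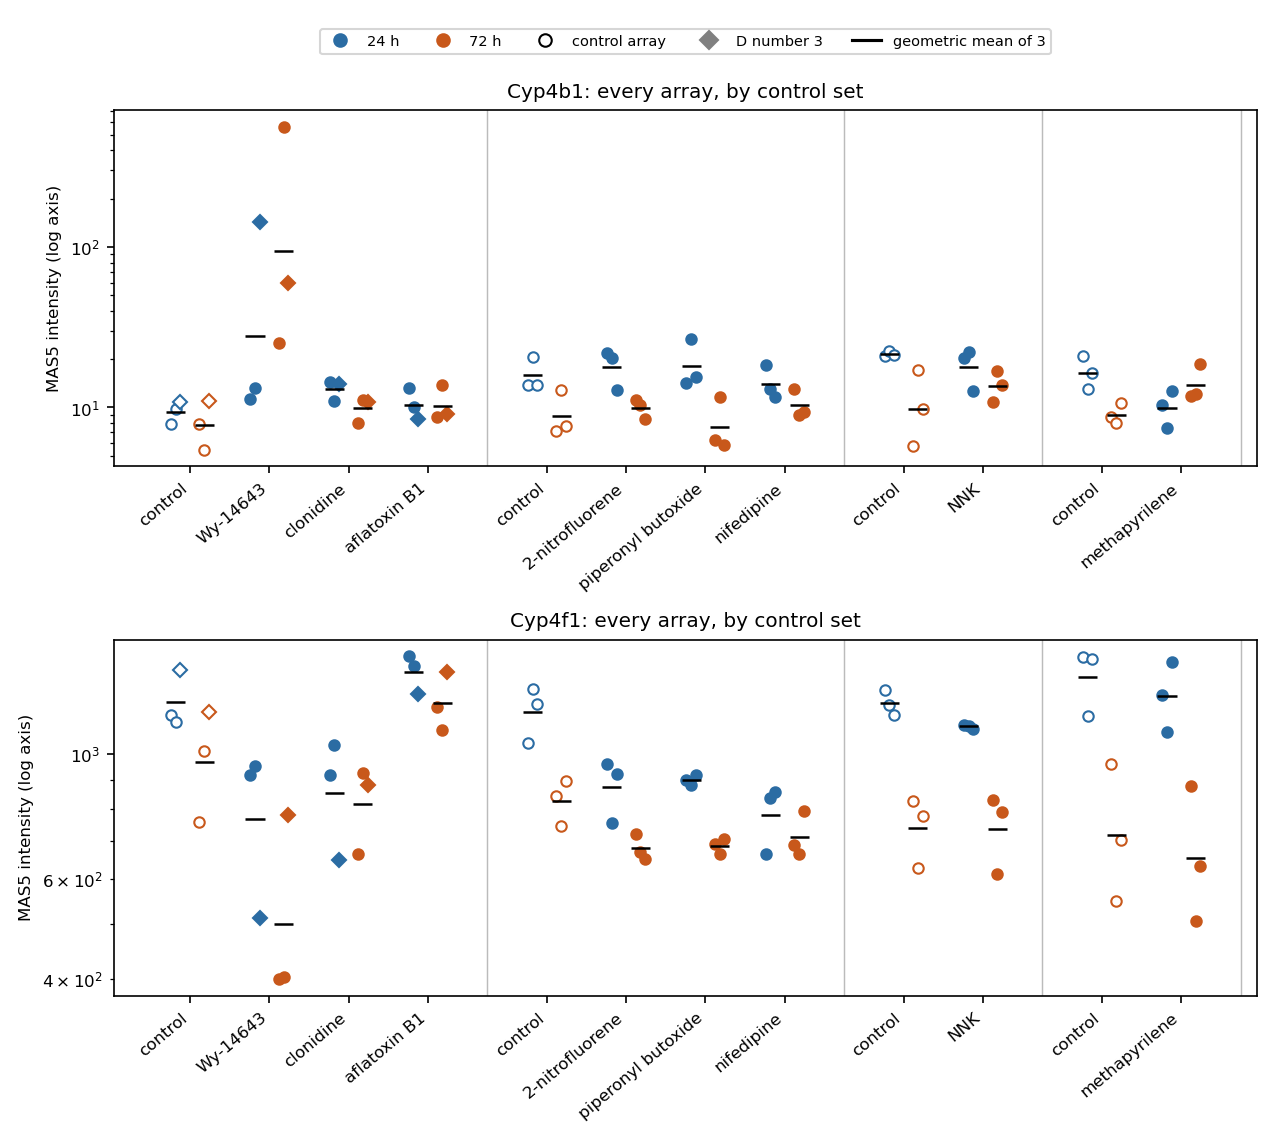
MAS5 intensity (log axis) of Cyp4b1 and Cyp4f1 on each of the 72 arrays, drawn as for the Cyp4a genes. The highest Cyp4b1 arrays are Wy-14643 at 72 h (563 and 59.4) and the D number 3 Wy-14643 array at 24 h (144), and Cyp4f1 is lowest on 2 Wy-14643 arrays at 72 h (399 and 404).

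Cyp4f4, a further eicosanoid hydroxylase, read 67 to 586 over all arrays, with the lowest value on aflatoxin B1 replicate 2 at 72 h. Its differences were below 0 in 8 of 8 comparisons at 24 h and in 6 of 8 at 72 h, and 0 were called (lowest limma adjusted p = 0.183). The 8 comparisons of a time rest on 4 control groups, and the share of such signs over all probe sets was not recorded. With 2-nitrofluorene at 24 h it read 392, 198 and 231 against 509, 522 and 529.9. The groups did not overlap, and the difference of −0.99 ± 0.35 passed with the replicate block only (limma adjusted p = 0.0174). With aflatoxin B1 at 72 h −0.86 also passed with the block only (limma adjusted p = 0.0285), but there the groups overlapped. The lowest of those arrays, replicate 2, had a high actin ratio, and its pair did not vary together (correlation −0.29). At 72 h of 2-nitrofluorene Cyp4f4 read 394, 354 and 465 against 284, 261 and 323, above every control, for 0.48 ± 0.35. The 2-nitrofluorene effect at 72 h minus that at 24 h was 1.47 ± 0.50 and not called.

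Cyp4v3, a fatty acid hydroxylase whose human counterpart is mutated in a retinal dystrophy, was the steadiest member. It ranged from 268 to 816 over all arrays, and its 16 differences ran from −0.60 to 0.16 with an SE of 0.23. The lowest followed Wy-14643 at 72 h, where it read 452, 275 and 295 against 523, 572 and 428. These ranges overlapped, and the difference was called with the replicate block only (limma adjusted p = 0.111 without and 0.0249 with it).

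The family was also compared between the 2 times without any compound. In arrays of equal D number Cyp4a1 was higher at 72 h than at 24 h in 11 of 12 control pairs, by 0.45 to 3.37 on the log2 scale, and the single exception, D number 3, went from 362 to 85.9, a change of −2.08. Pairs are not counted for Cyp4a8, whose probe sets passed the low-signal filter through control groups. The second passed only through those at 72 h, which favours a rise. Cyp4f1 was lower at 72 h in 12 of 12 pairs. The NNK and 2-nitrofluorene control sets carry the same D numbers, so the 12 pairs cover 9 D numbers. They are therefore not treated as 12 independent replicates. The share of all probe sets that moved in one direction over these pairs was not recorded. Both counts are given as a description only. Of the fitted changes over the 4 control groups 2 gene results were called, both falls of Cyp4f1: by 0.73 ± 0.21 in the NNK controls (limma adjusted p = 0.0376, 2.85% of all probe sets called) and by 0.92 ± 0.21 in the methapyrilene controls (0.0275, 0.51%). In the controls of the 2-nitrofluorene and Wy-14643 sets 0 of 8 genes were called (2 and 0 unadjusted, 2.71% and 0%). There the Cyp4a1 values at 72 h minus 24 h were 1.75 ± 0.94 and 1.39 ± 0.94. With the D number as a block Cyp4f4 was also called in the NNK controls (−0.88, limma adjusted p = 0.0427, 9.5% of all probe sets). The second Cyp4a8 probe set was called in the 2-nitrofluorene controls (2.20, limma adjusted p = 0.0499, 8.26%). It was at the floor on all 3 of their 24 h arrays and passed the filter only through 72 h controls. That call is therefore not read as a result.

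**Figure D4:**
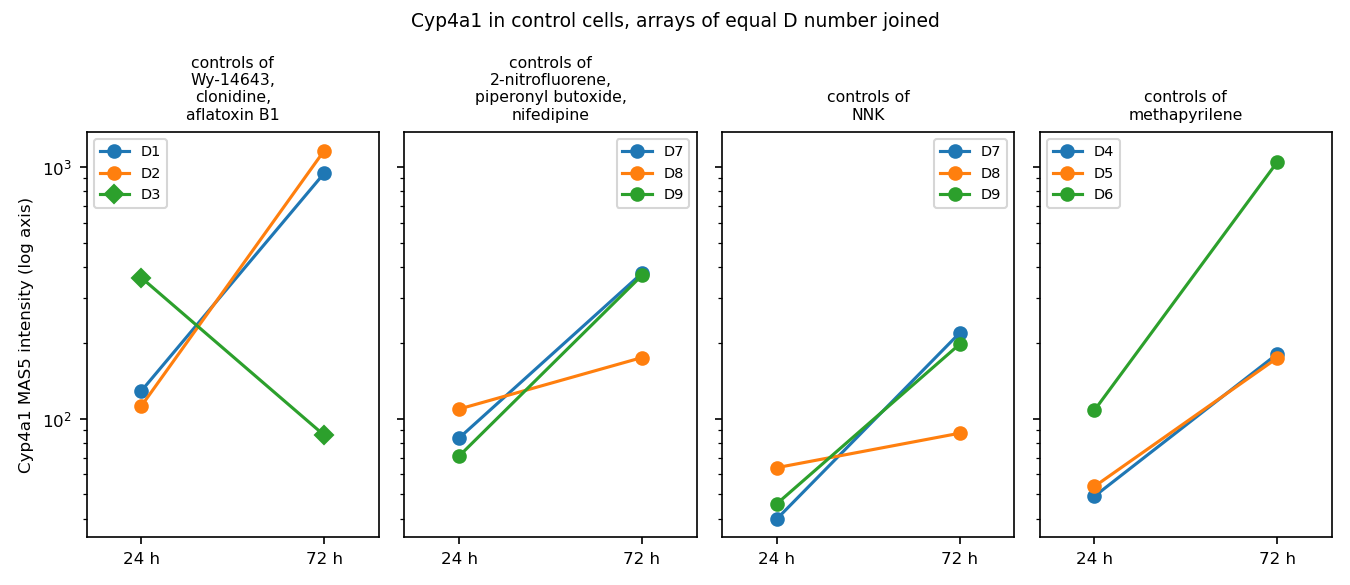
Cyp4a1 MAS5 intensity (log axis) in the control arrays at 24 h and 72 h, 1 panel per control set, with lines joining arrays of equal D number. Lines of 11 pairs rise and the D number 3 line falls, from 362 to 85.9.

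Other genes of lipid oxidation were counted from lists that leave out the family. Of 36 listed PPARα targets 33 were measured. With 2-nitrofluorene 27 rose at 24 h and 23 at 72 h, with Wy-14643 4 and 26, and with piperonyl butoxide 6 and 0; 0 fell in these comparisons. Their median differences were 1.86, 1.58, 1.37, 1.81, 1.11 and 0.31 in that order, beside medians of −0.07 to −0.01 over all probe sets. Among them the acyl-CoA thioesterase gene Acot1 rose by 8.85 and 9.17 with 2-nitrofluorene, Ehhadh of peroxisomal β-oxidation by 4.42 and 4.65, and Pdk4, a brake on glucose oxidation, by 4.59 and 3.75. Acot1 rose by 9.90, Pdk4 by 5.95, Cpt1b by 4.82 and Acot2 by 3.16 with Wy-14643 at 72 h. With Wy-14643 at 24 h the 4 called were Ech1 (1.98), Slc25a20 (1.54), Eci1 (1.52) and Decr1 (1.43). Without the D number 3 arrays that count was 0 and the median 0.51, while at 72 h it was 28, of which 25 were among the 26. Piperonyl butoxide at 24 h raised Ehhadh by 3.35 and Cpt1b by 2.77. For the remaining 5 compounds 0 of the 33 rose at either time, and 1 fell, Fgf21 with aflatoxin B1 at 24 h (by 1.98). Without the D number 3 arrays Fgf21 was not called, and 3 genes were called higher with aflatoxin B1, Angptl4 at 24 h (2.21) and Acot1 (5.17) and Pdk4 (2.58) at 72 h.

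**Figure D5:**
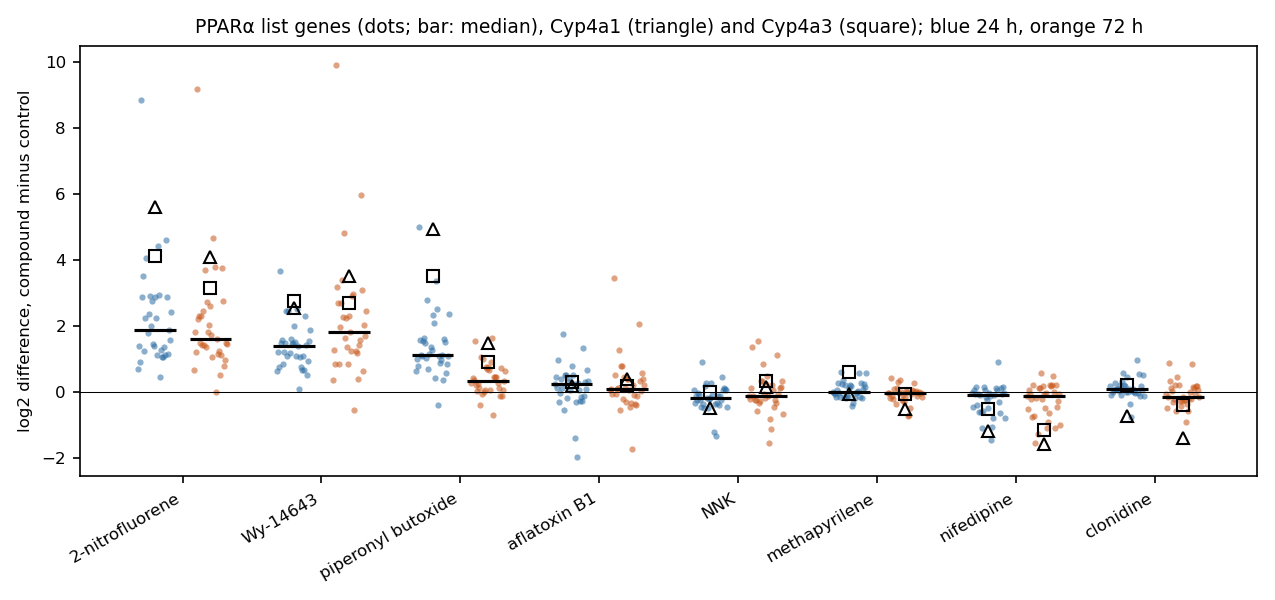
Log2 difference from the control of the same time for the 33 measured PPARα list genes (dots, with their median as a bar), Cyp4a1 (triangles) and Cyp4a3 (squares), with 24 h in blue and 72 h in orange. The list medians are highest for 2-nitrofluorene (1.86 and 1.58) and Wy-14643 (1.37 and 1.81), and the piperonyl butoxide median goes from 1.11 at 24 h to 0.31 at 72 h.

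Of 16 partners in ω-oxidation 13 were measured. Acsl1, which activates fatty acids with coenzyme A, rose with 2-nitrofluorene (2.24 and 2.28), piperonyl butoxide at 24 h (1.55) and Wy-14643 at 72 h (1.95). The peroxisomal thioesterase gene Acot8 rose with 2-nitrofluorene (1.24 and 1.48); both Acsl1 and Acot8 stand in the PPARα list too. Wy-14643 at 72 h raised the peroxisomal transporter gene Abcd3 (1.12) and lowered Cyb5r3 (−0.67) and the aldehyde dehydrogenase gene Aldh9a1 (−0.56, not called without the D number 3 arrays). Por, whose product passes electrons to all microsomal P450 enzymes, rose with nifedipine at 72 h (1.13), as did Cyb5a (0.72). With aflatoxin B1 Aldh1a1 rose by 3.65 and 3.50. In all, 13 of 208 gene results of this list were called higher and 2 lower.

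Of 8 further Cyp4 genes 3 were measured, and 4 results were called. Cyp4f17 rose with aflatoxin B1 (0.96 ± 0.25 and 1.40 ± 0.25) and Cyp4f6 with aflatoxin B1 at 72 h (0.77 ± 0.23) and NNK at 72 h (0.86 ± 0.23). Without the D number 3 arrays Cyp4f17 at 24 h was 0.73 and not called. Of 13 measured genes of eicosanoid metabolism Alox5, which makes leukotrienes, rose with aflatoxin B1 (3.47 and 4.68) and NNK at 72 h (3.19). Cyp2j4, an epoxygenase gene, rose at 72 h with 2-nitrofluorene (1.88) and Wy-14643 (1.28), and the epoxygenase gene Cyp2c11 fell with Wy-14643 at 72 h (−2.68 ± 0.73). Ptgr1 rose with nifedipine at 72 h (1.80). Among 9 measured lipid receptors and cofactors Ppara itself was called once, a rise of 3.64 ± 0.89 with nifedipine at 72 h (limma adjusted p = 0.0131), and Ppard fell with aflatoxin B1 at 72 h (−0.73, not called without the D number 3 arrays). In the 4 comparisons with called Cyp4 genes 0 of the 9 were called by limma (0 to 3 unadjusted), except that without the D number 3 arrays Hnf4a fell with Wy-14643 at 72 h (−0.93, against −0.69 and not called with them).

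Markers of other liver cells were read beside these results. Of 13 measured macrophage markers 4 fell with Wy-14643 at 72 h (C1qb, C1qc, Tyrobp and Ptprc, by 1.34 to 2.23), and their summed intensity was 470 to 787 against 813 to 1381 in the controls. Without the D number 3 arrays 6 fell. Apoa1 and Ttr of the 7 hepatocyte markers fell there too (−0.98 and −0.59). With 2-nitrofluorene at 72 h the macrophage sum was 555 to 1255 against 918 to 2000.3, with a median difference of −1.12 and 0 markers called by limma (4 unadjusted). At 24 h it was 810.0 to 1322 against 1123 to 1879. With nifedipine at 72 h 3 fell (Aif1, C1qa and Cd163). With aflatoxin B1 the macrophage markers were above 0 in 11 of 13 at 24 h (median 0.66) and 12 of 13 at 72 h (median 1.07). Limma called 0 of them (2 and 4 unadjusted), and 2 at 72 h without the D number 3 arrays (Cd68 and Aif1). With NNK at 72 h 8 of 13 were above 0 (median 0.20, 0 unadjusted). Alox5, a gene that leukocytes also express, rose in each of these comparisons, and a link to the markers was not tested. None of the 13 was at the floor on all arrays of a group, and their part in the differences of the family was not tested. In such bulk samples fewer cells of a type and less RNA per cell cannot be told apart. Of the stellate (8 measured), endothelial (4) and bile duct (2) markers limma called 0 in the 16 comparisons (1, 0 and 2 results unadjusted), and the bile duct marker Krt7 was at the floor on all arrays of 7 groups. Between 24 h and 72 h in the controls both bile duct markers rose in the NNK and 2-nitrofluorene sets (Krt7 by 4.69 and 4.17, and Epcam). Krt7 was at the floor on all 24 h arrays of both control groups, so the sizes of its rises depend on the floor. The 4 endothelial markers had medians of −1.64, −1.83 and −1.72 in the NNK, 2-nitrofluorene and methapyrilene controls, with 1 called, a fall of Pecam1 by 2.78 in the NNK controls. Their part in the changes of the family over time was not tested.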

How the data were processed

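RNA of primary rat hepatocytes was measured on 72 Affymetrix arrays, 3 in each of 24 groups. The deposited values are intensities on a linear scale, made by the authors with MAS5 per the submitters' processing notes; its version is not given in the sources used here. Treatment codes were matched to the compound names in the labels' protocols by their initials. Intensities under 3.12, the 20th percentile of all values, were set to that floor, and log2 was taken without further normalization. The filter on low signal kept the 18048 probe sets (58.0%) with a group mean no lower than 19.7, the median over the whole table. Depth does not apply to arrays; the 3 arrays per group limit the precision.

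Differences were fitted with limma 3.58.1 in R 4.3.3 (24 group means, 48 residual degrees of freedom, eBayes with a trend), with Benjamini-Hochberg adjustment over all kept probe sets within a comparison and a threshold of 0.05. Errors after ± are SEs. The fit was tested on simulated data. The p-values measure the spread between these arrays.

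D numbers recur between treatments and their controls, and 7 to 9 in both the 2-nitrofluorene and the NNK sets. Within a comparison the deviations of equal-numbered arrays from group means varied together in 14 of 16 comparisons (each pair's correlation over 0.1) and not in those of aflatoxin B1 (lowest −0.29), so a fit with D number by time as a replicate block (36 residual degrees of freedom) is given where it changes a call. For changes over time in the controls the block was the D number alone, chosen after seeing the data, as was repeating the list counts without the D number 3 arrays.

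Named are all members, up to 4 called genes of largest change per list and comparison, and the 5 genes most correlated with Cyp4a1; genes of other lists and markers beyond these were named after their values were seen. The members and lists were chosen with earlier results of these data known. Alternatives were a pseudocount of 16, no filter, quantile normalization, eBayes without a trend, the block, only the compared groups, and leaving out single arrays, D number 3 or the arrays of high actin ratio.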

Additional observations from a re-analysis of the deposited data

Results flagged for a closer look

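One difference between compounds passed its own test. The Cyp4b1 effect of 2-nitrofluorene minus that of Wy-14643 at 72 h was −3.44 (limma adjusted p = 0.0406).

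In 5 further cases all 3 pairs of equal D number lay on one side of the control at 24 h and on the other at 72 h, while the limma test of the difference between the times did not pass (adjusted p from 0.999 to 1). The effect at 72 h minus that at 24 h was 1.47 for Cyp4f4 and 2-nitrofluorene, 0.71 for Cyp4f4 and piperonyl butoxide, −0.43 for Cyp4b1 and piperonyl butoxide, 1.35 for Cyp4b1 and methapyrilene, and 0.37 for Cyp4v3 and NNK. Groups of 3 arrays were not searched for outlying arrays.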

How the results depend on the processing

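Of 2016 member values under an alternative 0 reversed a call, and 101 that were not called changed sign. Counts of called genes that moved by over 1.5 times were as follows. With the replicate block they were 1 for aflatoxin B1 at 24 h and 2 at 72 h, 4 for Wy-14643 at 24 h, 1 and 3 for nifedipine at 24 h and 72 h, and 2 for 2-nitrofluorene minus Wy-14643, with 3.98% to 15.1% of all probe sets called; blocking the control changes by D number alone gave 3. A pseudocount of 16 gave 1 for aflatoxin B1 at 72 h and 0 for 2-nitrofluorene minus Wy-14643. Without the filter piperonyl butoxide at 24 h, 2-nitrofluorene at 72 h and the control changes had 1 each and 2-nitrofluorene minus Wy-14643 had 0. Quantile normalization gave 1 for piperonyl butoxide at 24 h, 1 for the control changes and 0 for 2-nitrofluorene minus Wy-14643. With only the compared groups the counts were 1 for nifedipine at 24 h, 0 for Wy-14643 at 72 h, 1 for the effects at 72 h minus 24 h, 6 for the control changes and 0 for 2-nitrofluorene minus Wy-14643. Without D number 3 they were 1 for nifedipine at 24 h, 1 for aflatoxin B1 at 72 h, 3 for Wy-14643 at 72 h, 1 for 72 h minus 24 h and 4 for the control changes. Without the arrays of high actin ratio they were 1 for aflatoxin B1 at 24 h, 2 for nifedipine at 24 h, 3 for Wy-14643 at 72 h, 1 for 72 h minus 24 h and 8 for the control changes. Beyond the main fit, shares of all probe sets called were recorded only with a block. The other counts, also those below with 1 array left out, are therefore not read as results about the family. The causes were not tested.

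Leaving out 1 array at a time gave 0 to 1 genes for aflatoxin B1 at 24 h and 0 to 2 at 72 h, 2 to 3 for 2-nitrofluorene at 24 h and 0 to 2 at 72 h, 0 to 1 for piperonyl butoxide at 24 h, and 2 to 7 for Wy-14643 at 72 h. It gave 0 to 1 for 72 h minus 24 h, 1 to 2 for the control changes and 0 to 1 for 2-nitrofluorene minus Wy-14643. Low signal limits Cyp4a8, at the floor on 4 and 21 of 72 arrays by probe set, and Cyp4b1 outside Wy-14643.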
